A study of Schizosaccharomyces pombe with 13 samples.

Results

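The annotated antisense RNAs of fission yeast (Schizosaccharomyces pombe) are noncoding transcripts that carry their own identifier in the annotation and lie, with few exceptions, on the strand opposite a protein-coding gene. They were taken from the authors' deposited table of antisense transcripts as the entries whose identifier starts with SPNCRNA and does not occur in the deposited table of sense transcripts, whatever the letter case. This gave 414 RNAs of 1561 entries. The other entries were 1052 measures of antisense signal at annotated genes and 95 noncoding RNAs that the sense table lists as well. Strand-specific RNA sequencing was used to set 3 strains against wild type, all in the ED668 background and all carrying ade6-M216, leu1-32 and ura4-D18. The xap5 deletion (h+, 3 libraries) had KanMx4 in place of SPCC1020.12c in the strain Bioneer-BG4186. The pht1 deletion (h−, 3 libraries) had NatMx4 in place of SPBC11B10.10c, and the double deletion (h−, 3 libraries) carried both replacements. Wild type was h+ with 4 libraries. Cells had been grown overnight in YES medium at 30 °C and were sampled in exponential growth in EMM50 medium at 37 °C.

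Antisense transcription can start at cryptic sites inside genes, at the promoter of a divergent neighbour, or as read-through from a convergent gene. Fission yeast limits such RNAs through chromatin and through RNA decay by the nuclear exosome. H2A.Z, the histone variant made from pht1, is placed in nucleosomes near gene starts by the SWR1 complex. The gene xap5 encodes a conserved nuclear protein associated with chromatin. The comparisons ask how antisense RNA levels changed when either protein, or both, was missing.

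Start windows of 6 RNAs are shown because these RNAs had the highest or lowest deposited folds among those whose window holds no annotated UTR base. Each window is read 5′ to 3′ along the RNA from the RefSeq reference, build ASM294v3, and holds 250 bases before the annotated RNA start and 50 bases from it, so that the RNA starts at base 251. Capitals mark matches, on either strand, to the motifs TGACGT (bound by the ATF/CREB factors), ACGCGT (cell cycle box), CAGTCACA (homol D box of ribosomal protein genes), TTTGTT (related to the Ste11 site), TATAAA, known as the TATA box, and TTAAAC. SPNCRNA.1223 (minus strand, window chrIII:1722827-1723126), SPNCRNA.754 (minus strand, chrI:1686613-1686912) and SPNCRNA.1155 (plus strand, chrIII:740057-740356) were among the RNAs with the highest folds in the double deletion. SPNCRNA.15 (minus strand, chrII:1329711-1330010) had the highest fold in the pht1 deletion. SPNCRNA.1376 (plus strand, chrII:626235-626534) and SPNCRNA.957 (minus strand, chrI:4095964-4096263) had the lowest folds there.
SPNCRNA.1223: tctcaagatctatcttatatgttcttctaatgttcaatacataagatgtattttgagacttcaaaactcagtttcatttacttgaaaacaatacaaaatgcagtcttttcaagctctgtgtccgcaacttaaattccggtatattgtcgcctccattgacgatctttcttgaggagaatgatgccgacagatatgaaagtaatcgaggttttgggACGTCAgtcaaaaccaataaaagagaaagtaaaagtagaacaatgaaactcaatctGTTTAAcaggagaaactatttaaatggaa
SPNCRNA.754: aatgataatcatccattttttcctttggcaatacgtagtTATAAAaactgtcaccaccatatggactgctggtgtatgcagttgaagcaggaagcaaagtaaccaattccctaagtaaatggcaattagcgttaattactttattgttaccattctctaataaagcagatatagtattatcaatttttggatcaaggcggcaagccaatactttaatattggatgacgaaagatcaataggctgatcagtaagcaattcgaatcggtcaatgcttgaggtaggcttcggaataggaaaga
SPNCRNA.1155: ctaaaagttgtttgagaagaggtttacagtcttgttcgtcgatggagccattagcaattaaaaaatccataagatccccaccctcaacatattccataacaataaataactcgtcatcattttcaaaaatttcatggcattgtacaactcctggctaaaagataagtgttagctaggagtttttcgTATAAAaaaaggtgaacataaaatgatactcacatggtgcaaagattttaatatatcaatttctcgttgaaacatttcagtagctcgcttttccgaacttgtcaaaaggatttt
SPNCRNA.15: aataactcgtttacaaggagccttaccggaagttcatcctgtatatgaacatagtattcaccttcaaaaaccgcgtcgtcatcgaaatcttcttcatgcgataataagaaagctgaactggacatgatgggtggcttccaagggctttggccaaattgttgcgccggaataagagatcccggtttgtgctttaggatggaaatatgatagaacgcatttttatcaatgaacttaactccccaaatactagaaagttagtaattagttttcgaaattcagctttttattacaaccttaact
SPNCRNA.1376: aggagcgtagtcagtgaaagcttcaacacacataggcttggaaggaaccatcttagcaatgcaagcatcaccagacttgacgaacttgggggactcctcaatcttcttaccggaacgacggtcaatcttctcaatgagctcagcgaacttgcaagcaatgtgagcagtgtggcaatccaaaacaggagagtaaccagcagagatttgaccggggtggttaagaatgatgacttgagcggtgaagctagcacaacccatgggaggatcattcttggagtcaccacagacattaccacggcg
SPNCRNA.957: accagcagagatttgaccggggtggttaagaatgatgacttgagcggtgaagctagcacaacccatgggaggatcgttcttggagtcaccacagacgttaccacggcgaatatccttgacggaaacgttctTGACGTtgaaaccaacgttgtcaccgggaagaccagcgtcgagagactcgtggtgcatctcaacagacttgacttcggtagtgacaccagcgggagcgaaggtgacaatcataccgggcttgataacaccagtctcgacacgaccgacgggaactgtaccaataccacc
The windows of SPNCRNA.754, SPNCRNA.1376 and SPNCRNA.957 lie wholly inside coding exons of their host genes, with 300 of 300 bases each. The window of SPNCRNA.1223 holds 0 host coding bases. SPNCRNA.1376 and SPNCRNA.957 lie over 2 copies of the gene for elongation factor EF-1 alpha, and their windows share 106 of 108 aligned bases. Over all 407 RNAs with a position in the reference, TGACGT occurred in 7.62% of the start windows, against 5.91% of the same windows at protein-coding genes. TATAAA occurred in 42.0% of the windows of antisense RNAs and in 48.1% of those at protein-coding genes, and TTTGTT in 42.8% and 50.4%. ACGCGT occurred in 1.97% and 3.25%, CAGTCACA in 1.97% and 2.68%, and TTAAAC in 26.8% and 32.0% of the same 2 sets. A match describes letters in a window and is not evidence of a bound factor.

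The deposited tables hold, for each entry and comparison, a log2 fold of the deletion strain over wild type with its p-value before and after adjustment, so neither values per library nor standard errors can be given. In what follows an RNA is called higher or lower when its deposited adjusted p-value was under 0.05, and a host is the protein-coding gene that the RNA overlaps most on the other strand. The labels do not say that replicates were separate cultures, and they speak of 3 replicates where wild type has 4 libraries, so a p-value reflects how far libraries differ, which may be technical. Depth is stated as 11.8 M reads for a mean library and is unknown for single libraries. The deposited sense log2 fold of xap5 was −3.11 in the xap5 deletion and −2.11 in the double deletion, and pht1 had −2.13 in its own deletion and −1.55 in the double deletion. Mating type and genotype cannot be told apart for the pht1 and double deletions, which are labelled h− where wild type is labelled h+. Mating-type genes were counted as a check of these labels. Of 8 M-cell genes, 4 were lower in the xap5 deletion, which shares the h+ label of wild type (mat1-Mc by −4.27), 0 were called in the pht1 deletion, and 8 were higher in the double deletion (mat1-Mc by 0.84). Of 4 P-cell genes, 2 were higher in the xap5 deletion (map1 by 1.28 and map3 by 0.53), 0 were called in the pht1 deletion, and 1 was higher in the double deletion (map1 by 1.02). The xap5 deletion thus differed from wild type in these genes although both are labelled h+, so mating type and genotype cannot be told apart there either. The pht1 deletion was not called different although its label is h−. The part of mating type in the results that follow was not tested.

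Most annotated antisense RNAs had a fold above 0 in each deletion strain, and the median fold was largest in the double deletion. The median deposited log2 fold of the 414 RNAs was 0.74 in the xap5 deletion, 0.67 in the pht1 strain and 1.26 in the double deletion, while the medians of the 5747 sense entries were −0.01, −0.02 and −0.05 in the same order. Folds above 0 were found for 370 RNAs in the xap5 deletion, 367 in the pht1 strain and 365 in the double deletion. In such bulk cultures a change in the share of cells that hold an RNA and a change in RNA per cell cannot be told apart. Of the RNAs called in a comparison, 93.5% were higher in the xap5 deletion, 97.1% in the pht1 strain and 89.6% in the double deletion. Per the file headers the antisense table is limited to transcripts with a p-value under 0.01, and all 414 RNAs passed 0.01 after adjustment in 1 comparison or more, so the share of RNAs called cannot be read against that of the sense entries. The limit was passed by 352 RNAs in the double deletion, 197 in the xap5 deletion and 149 in the pht1 deletion. The medians and their order across strains thus describe listed RNAs and are in part set by that limit. SPNCRNA.1263 lay closest to this limit, with a smallest adjusted p of 0.00917. The ratio of adjusted to unadjusted p-values gives about 6406 tests in the xap5 deletion, 6413 in the pht1 strain and 6416 in the double deletion. If these tests were the 5747 sense entries and the annotated antisense RNAs and nothing else, which is an assumption, about 659, 666 and 669 of the RNAs were tested. Under that assumption 28.2%, 21.8% and 47.2% of them were listed as higher with an adjusted p-value under 0.01, in the same order, and 1.67%, 0.601% and 5.38% as lower. With the same limit, 16.3%, 8.60% and 26.8% of the sense entries were higher and 15.2%, 5.76% and 29.1% lower. Antisense signal at annotated genes, listed under the same limit, had medians of 0.70, 0.93 and 1.53 in that order, with 22.5%, 41.4% and 76.6% of the 1052 entries higher and 0.760%, 4.75% and 10.2% lower.

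**Figure D1:**
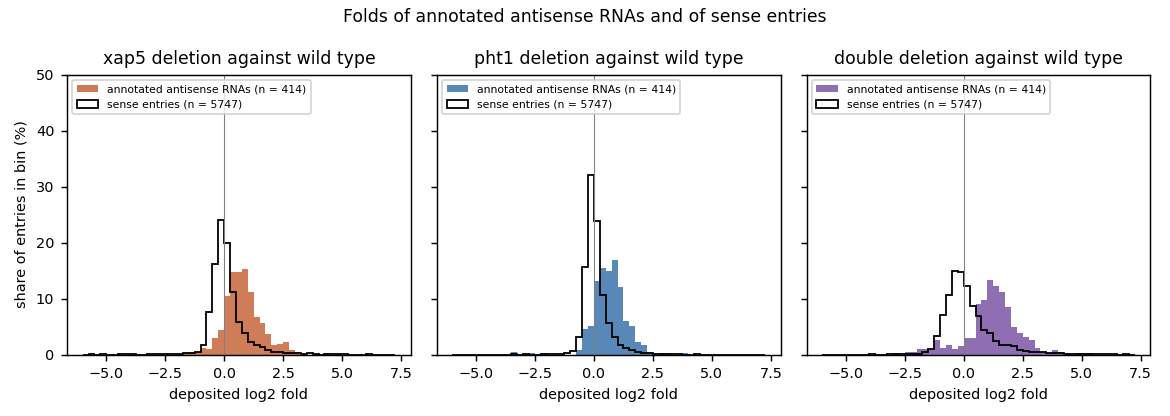
Share of entries (%) by deposited log2 fold against wild type, in bins of 0.25, for the 414 annotated antisense RNAs (filled) and the 5747 sense entries (line). The median of the antisense RNAs lies at 0.74 for the xap5 deletion, 0.67 for pht1 and 1.26 for the double deletion, and that of the sense entries near 0. Sense entries with a fold over 20 in size are outside the axis.

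In the xap5 deletion, 230 annotated antisense RNAs were higher and 16 were lower than in wild type, with 168 not called. The same call held for 21.1% of all sense entries in the higher direction and 20.6% in the lower. At least 2-fold higher were 134 RNAs and at least 2-fold lower were 5, beside 8.23% and 1.04% of the sense entries. The highest deposited log2 fold, 4.37 (adjusted p = 5.33e-09), belonged to SPNCRNA.1075, a 541-base RNA over gem6, which encodes a subunit of the SMN complex that assembles spliceosomal particles. SPNCRNA.997 over ypp1, which encodes a cargo transport protein, followed with 3.09 (adjusted p = 2.13e-08). SPNCRNA.1155 over cds1, the gene of the replication checkpoint kinase, had 3.00 (adjusted p = 1.15e-15). Of these 3 hosts, cds1 itself was higher (0.83) and the other two had sense folds within 0.14 of 0. SPNCRNA.1247 over SPCC18.03 (2.97), SPNCRNA.1208 over snp27 (2.92) and SPNCRNA.820 over kap114, an importin gene (2.91), were also among the 10 highest. SPNCRNA.569 over trm734 (2.68) and SPNCRNA.1280 over yme1, the gene of a mitochondrial protease (2.59), were too. The remaining members of the 10 highest, SPNCRNA.687 and SPNCRNA.1271, were called in the xap5 deletion alone. SPNCRNA.687 over cph1, which encodes a partner of the histone deacetylase Clr6, had log2 folds of 2.65 in the xap5 deletion, 0.22 in the pht1 strain and −0.19 in the double deletion. SPNCRNA.1271 over ckk2, a protein kinase gene, had 2.64, 0.16 and 0.40 in that order. The smallest adjusted p-values of the comparison belonged to SPNCRNA.1271 (9.04e-43), SPNCRNA.1276 (2.75e-31), SPNCRNA.904 (4.83e-31), SPNCRNA.687 (1.05e-28) and SPNCRNA.1280 (3.51e-28). Of these, SPNCRNA.1276 over brl1, which encodes a histone H2B ubiquitin ligase subunit, had a log2 fold of 1.92, and SPNCRNA.904 over dmc1, the meiotic recombinase gene, had 1.89.

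The 16 RNAs that were lower in the xap5 deletion had smaller folds. SPNCRNA.769 over SPAPB1A10.13 fell by 1.58 on the log2 scale in the xap5 deletion (adjusted p = 0.00466) and was higher where pht1 was missing, by 1.89 in that single deletion and by 1.62 in the double deletion. SPNCRNA.1487 over mag2, a DNA glycosylase gene, had a fold of −1.46 and SPNCRNA.742 over SPAC9.08C, a steroid reductase gene, −1.39. SPNCRNA.613 over hsp3102, which encodes a glyoxylase III, had −1.08, and SPNCRNA.655 over yea6, which encodes an NAD+ transporter, had −1.04. The other 5 of the 10 lowest lay between −0.95 and −0.76: SPNCRNA.1105 over rhp16, SPNCRNA.1371 over rsn1, SPNCRNA.1036 over wis2, SPNCRNA.668 over rsc58 and SPNCRNA.733 over SPAC1565.03.

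In the pht1 deletion, 199 annotated antisense RNAs were higher than in wild type, 6 were lower and 209 were not called. Among all sense entries 13.5% were called higher and 11.1% lower. At least 2-fold higher were 106 RNAs and at least 2-fold lower were 4, beside 4.11% and 0.522% of the sense entries. SPNCRNA.15 over crt10, whose product takes part in ribosomal RNA decay, had the highest log2 fold, 3.92 (adjusted p = 1.82e-07), against 1.74 in the xap5 deletion (adjusted p = 0.0967) and 2.56 in the double deletion (adjusted p = 0.00334). SPNCRNA.1208 over snp27, a gene for a spliceosomal protein, had 3.05 (adjusted p = 0.00122). SPNCRNA.676 over alp41, whose product acts in beta-tubulin folding, had 3.00 (adjusted p = 3.15e-05). It was not called in the other 2 strains, with folds of 1.62 in the xap5 deletion and 1.51 in the double deletion. SPNCRNA.569 over trm734 had 2.43 and SPNCRNA.691 over atg22, a vacuolar amino acid transporter gene, had 2.28. SPNCRNA.1438 over cdc2, the gene of the cyclin-dependent kinase that drives the cell cycle, had 2.23 and SPNCRNA.1181 over rgf3, an activator of the GTPase Rho1, had 2.18. SPNCRNA.1569 over mhf1 (2.16), SPNCRNA.1033 over ceo5 (2.15) and SPNCRNA.1623 over tad2, a tRNA deaminase gene (2.12), completed the 10 highest. SPNCRNA.1033 also had the smallest adjusted p-value of the comparison (1.23e-17), followed by SPNCRNA.1570 over coq8, a ubiquinone biosynthesis gene, with a log2 fold of 1.83. SPNCRNA.617 over rad8 (1.18), SPNCRNA.1687 over vps10 (1.56) and SPNCRNA.827 over meu26 (1.23) had the next smallest values.

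All 6 RNAs called lower in the pht1 deletion are named here. SPNCRNA.1376 over tef103 had a log2 fold of −3.42 (adjusted p = 0.00168) and SPNCRNA.957 over tef102 −3.36 (adjusted p = 0.000146). Both hosts encode EF-1 alpha, which brings aminoacyl-tRNA to the ribosome, and both RNAs hold repeated sequence: 82.7% of the 100-base windows of SPNCRNA.1376 and 50.05% of those of SPNCRNA.957 occur elsewhere in the genome, so reads could be split between the copies. SPNCRNA.1465 over rps1601, a gene for a small-subunit ribosomal protein, had −2.73 (adjusted p = 0.0023) and SPNCRNA.1322 over guk1, the guanylate kinase gene, −2.21 (adjusted p = 0.000325). SPNCRNA.1403 over SPBC146.02 had −0.62 and SPNCRNA.1263 over SPCC576.17C −0.36. In the xap5 deletion the 4 largest of these falls had no counterpart: the folds lay between −0.21 and 0.01, with adjusted p-values of at least 0.758.

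In the double deletion, 335 annotated antisense RNAs were higher than in wild type, 39 were lower and 40 were not called. Among all sense entries 30.5% were called higher and 34.3% lower. At least 2-fold higher were 263 RNAs and at least 2-fold lower were 26, beside 15.1% and 5.10% of the sense entries. SPNCRNA.1075 over gem6 was again the highest, with a log2 fold of 5.30 (adjusted p = 2.35e-16). SPNCRNA.1223, a 1700-base RNA that covers the whole of the uncharacterized gene SPCC191.10, had log2 folds of 2.12 in the xap5 deletion, 1.75 in the pht1 strain and 5.02 in the double deletion (adjusted p = 4.58e-54). SPNCRNA.754 over bst1, which encodes a GPI inositol deacylase, had 2.39, 1.63 and 4.79 in that order. For each of these RNAs the double deletion fold was above that of both single deletion strains, which their choice by the highest double deletion folds favours. SPNCRNA.1155 over cds1 had 4.25, SPNCRNA.931 over grx2, a glutaredoxin gene, also 4.25, and SPNCRNA.1208 over snp27 had 4.24. SPNCRNA.791 over rad55, which encodes a recombination mediator, had 3.98 and SPNCRNA.1280 over yme1 had 3.94. SPNCRNA.1328 over atg38 (3.76) and SPNCRNA.686 over mta1, a methionine salvage gene (3.60), completed the 10 highest. The smallest adjusted p-value belonged to SPNCRNA.1626, of 5113 bases, over the MADS-box factor gene mbx2 (log2 fold 2.26, adjusted p = 3.42e-77). SPNCRNA.1520, of 3149 bases, over pim1, which encodes the exchange factor of Ran, followed (log2 fold 3.41, adjusted p = 2.23e-71), then SPNCRNA.1280 (4.33e-67), SPNCRNA.1223 (4.58e-54) and SPNCRNA.1276 (2.72e-51).

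The lowest fold in the double deletion was that of SPNCRNA.1307 over the arylsulfatase gene SPBPB10D8.02C, with −2.88 (adjusted p = 4.27e-07). This host was lower as well, with sense folds of −2.06 in the xap5 deletion, −1.30 in the pht1 strain and −2.26 in the double deletion. SPNCRNA.957 (−2.46) and SPNCRNA.1376 (−2.30) over the EF-1 alpha genes came next, then SPNCRNA.742 over SPAC9.08C (−2.21) and SPNCRNA.1371 over rsn1, a calcium transporter gene (−2.16). The others of the 10 lowest were SPNCRNA.1277 over pep3 (−1.88), SPNCRNA.1639 over hip3, a histone chaperone gene (−1.87), SPNCRNA.710 over meu31 (−1.84), SPNCRNA.689 over uba42 (−1.78) and SPNCRNA.613 over hsp3102 (−1.64). SPNCRNA.1277, SPNCRNA.1639, SPNCRNA.710 and SPNCRNA.689 were called in neither single deletion strain, where their folds lay between −0.38 and 0.12.

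**Figure D2:**
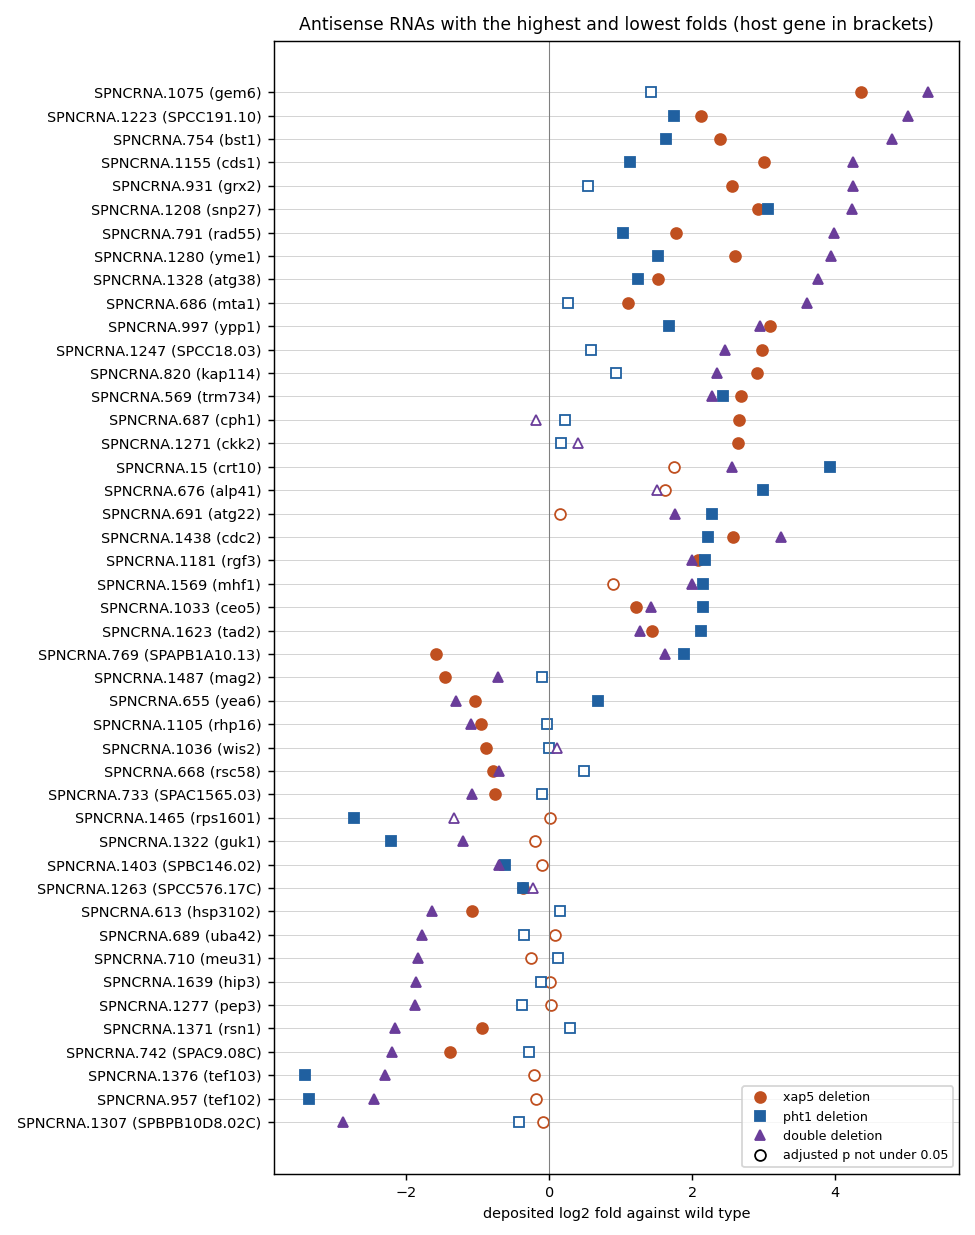
Deposited log2 folds against wild type of the RNAs with the 10 highest and the 10 lowest folds among the called ones of each comparison, with the host gene in brackets; circles are the xap5 deletion, squares the pht1 deletion, triangles the double deletion, and open symbols have an adjusted p-value of 0.05 or more. The double deletion triangle lies farthest to the right for the first 10 RNAs, from 5.30 for SPNCRNA.1075 to 3.60 for SPNCRNA.686. These 10 were chosen by that fold, which favours this order. SPNCRNA.687 and SPNCRNA.1271 lie far from 0 in the xap5 deletion alone.

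Deposited log2 folds of the single deletions were subtracted from those of the double deletion. Wild type cancels in these differences, which have no error and were not tested. The double deletion fold was above that of the xap5 deletion for 295 of the 414 RNAs (median difference 0.50) and above that of the pht1 deletion for 311 (median difference 0.58). Since 352 of the 414 RNAs passed the limit of the table in the double deletion, the excess over the single deletions is in part set by that limit. Among RNAs called in a comparison that enters, the difference from the xap5 deletion was at least 1 log2 unit for 90 RNAs and −1 or below for 29. Against the pht1 deletion these numbers were 119 and 31. The widest differences from the xap5 deletion were those of SPNCRNA.769 (3.21), SPNCRNA.1223 (2.90) and SPNCRNA.892 over tif211, the gene of initiation factor eIF2 alpha (2.76). SPNCRNA.892 had log2 folds of −0.56 in the xap5 deletion, 1.87 in the pht1 strain and 2.20 in the double deletion. In the other direction stood SPNCRNA.687 (−2.84), SPNCRNA.1307 (−2.79), SPNCRNA.1317 over the maltase gene mal1 (−2.40) and SPNCRNA.690 over prh1, an RNA helicase gene (−2.28). SPNCRNA.690 was higher in the xap5 deletion (1.13, adjusted p = 0.000241) and lower in the double deletion (−1.14, adjusted p = 0.002). From the pht1 deletion the widest differences were those of SPNCRNA.1075 (3.88), SPNCRNA.931 (3.70) and SPNCRNA.686 (3.34), and at the other end those of SPNCRNA.1307 (−2.46), SPNCRNA.1371 (−2.46) and SPNCRNA.1697 over the galactokinase gene gal1 (−2.22). Against the sum of both single deletion folds, the double deletion fold was lower by a median of 0.25, with a difference of at least 1 log2 unit for 22 RNAs and of −1 or below for 86. Wild type does not cancel in this difference from the sum, so error in the wild-type libraries enters it. Whether the 2 deletions add up was not tested.

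By the reference annotation the RNAs were long and mostly covered their hosts. Of the 407 RNAs with a position, 185 lay on chromosome I, 156 on II and 66 on III, and 7 had no position. Their length was between 325 and 5317 bases with a median of 1640. A host was found for 401, with 396 distinct genes, and 6 RNAs overlapped no protein-coding gene on the other strand. The median share of the host covered was 81.8%, and 400 RNAs overlapped host coding sequence. The RNA ran past the start of the host in 234 cases, and it began beyond the 3′ end of the host in 178 cases and inside the host in 223. A divergent protein-coding gene began within 300 bases of the RNA start for 125 RNAs. For 66, a same-strand protein-coding gene that began before the RNA start ended within 300 bases before it or beyond it. This class thus also holds RNAs that start inside such a gene. Both held for 5 RNAs and neither for 211. Another annotated feature on the same strand overlapped 80 of the RNAs, and for 51 of them a protein-coding gene did. These RNAs can share reads with the feature they overlap. The part of such reads in the folds was not tested.

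The start classes differed in which single deletion had the larger median, as a description with no test. RNAs with a divergent neighbour had median log2 folds of 0.83 in the xap5 deletion, 0.58 in the pht1 strain and 1.28 in the double deletion. Of these 125, 79 (63.2%), 57 (45.6%) and 108 (86.4%) were higher, beside 55.6%, 48.1% and 80.9% of all 414 RNAs. RNAs that start behind or inside a gene on their own strand had medians of 0.61, 0.83 and 0.95 in that order. Of these 66, 31 (47.0%), 41 (62.1%) and 47 (71.2%) were higher. For the 211 RNAs in neither class the medians were 0.68, 0.67 and 1.32. The authors' descriptions mark 69 RNAs as possible alternative UTRs of a neighbour, and these had medians of 0.60, 0.88 and 1.06, against 0.77, 0.60 and 1.29 for the 345 without the mark. For 130 RNAs with a sense value of the divergent gene, Spearman's rho between the RNA fold and the fold of that gene, over RNAs that share libraries, was 0.35 in the xap5 deletion, −0.02 in the pht1 strain and 0.30 in the double deletion.

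Sense values were present for the hosts of 394 RNAs. Where the RNA was higher, hosts were called in either direction. Of the 213 such pairs in the xap5 deletion 42 hosts were higher and 51 lower, with a median host log2 fold of −0.02; with all calls at 0.01 these counts were 28 and 26. At 0.05 the shares were 19.7% higher and 23.9% lower, beside 21.1% and 20.6% of all sense entries. Where such an RNA reached the host start, 30 hosts (26.5%) were higher and 25 (22.1%) lower of 113. Where it did not, 12 hosts (12.0%) were higher and 26 (26.0%) lower of 100. The difference in higher hosts was not seen in the other strains. In the pht1 deletion 11.3% of hosts were higher where the RNA reached the host start and 11.1% where it did not. The lower shares there were 13.2% and 21.0%. In the double deletion the higher shares were 25.3% and 24.6%, and the lower shares 36.8% and 41.8%, in the same order. In the pht1 deletion 21 hosts (11.2%) were higher and 31 (16.6%) lower of 187 (median −0.09), beside 13.5% and 11.1% of all sense entries. In the double deletion 79 hosts were higher and 123 (38.9%) lower of 316 (median −0.13). The higher share was below the 30.5% of all sense entries, and the lower share was above their 34.3%. SPNCRNA.1520 was 3.41 higher in the double deletion and its host pim1 was lower (−0.98, adjusted p = 2.35e-14). SPNCRNA.1033 had a fold of 1.42 there and its host ceo5 −1.23 (adjusted p = 5.11e-22). For SPNCRNA.1223, SPNCRNA.791 and SPNCRNA.904, whose folds in the double deletion were 5.02, 3.98 and 2.09, the host folds of 0.06, 0.12 and 0.05 were not called. SPNCRNA.1626 and its host mbx2 were both higher there, with 2.26 and 1.34.

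Where the RNA was lower in the xap5 or double deletion, the host was more often higher than lower. In the xap5 deletion 10 hosts (62.5%) were higher and 1 (6.25%) lower of 16 pairs, with a median host log2 fold of 0.86, beside 21.1% and 20.6% of all sense entries. In the double deletion 22 hosts (56.4%) were higher and 8 (20.5%) lower of 39, with a median of 0.77, beside 30.5% and 34.3% of all sense entries. In the pht1 deletion 1 host was higher and 2 lower of 6. SPNCRNA.613 had log2 folds of −1.08 in the xap5 deletion, 0.15 in the pht1 strain and −1.64 in the double deletion, while its host hsp3102 had sense folds of 2.93, 1.93 and 5.81. SPNCRNA.1487 had −1.46 in the xap5 deletion and −0.71 in the double deletion, and its host mag2 had 0.27 (not called) and 3.81 there. SPNCRNA.710 fell by 1.84 in the double deletion and its host meu31 was higher by 1.77. SPNCRNA.1036 was lower in the xap5 deletion (−0.89), where its host wis2, a cyclophilin gene, had 3.53. SPNCRNA.1697 had −1.53 in the double deletion, where gal1 had 1.47. Across all 394 pairs, Spearman's rho between RNA fold and host fold was −0.12 in the xap5 deletion, −0.17 in the pht1 strain and −0.20 in the double deletion, a description over pairs from the same libraries.

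**Figure D3:**
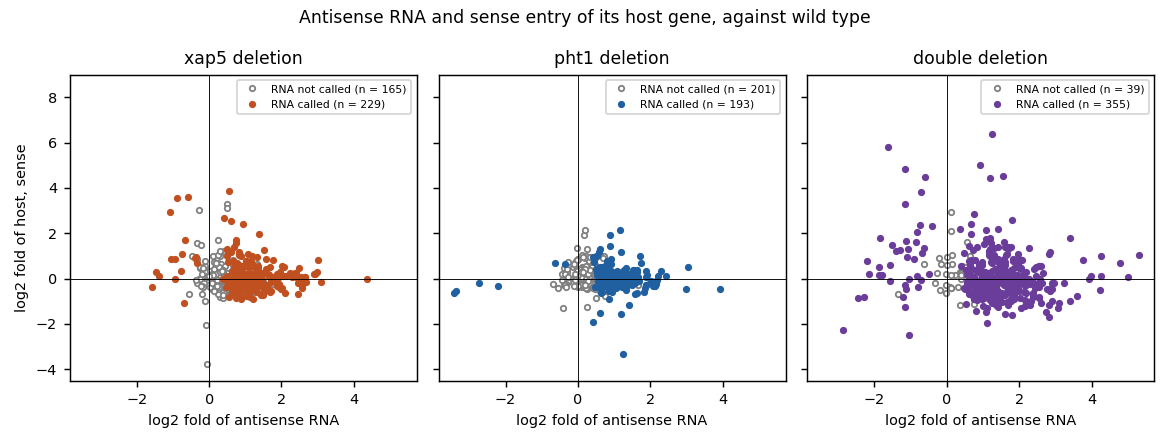
Deposited log2 fold of each antisense RNA (horizontal) and of the sense entry of its host gene (vertical) against wild type, for 394 pairs in each comparison; filled points are RNAs with an adjusted p-value under 0.05. Hosts of RNAs to the right of 0 scatter around 0, while several hosts of RNAs to the left of 0 lie well above it, up to 5.81 for hsp3102 in the double deletion.

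A few loci show how RNAs lie over their hosts. Over rec7, a gene needed for meiotic recombination, lie 4 annotated RNAs that overlap in part, so they can share reads. The longest, SPNCRNA.1203, spans chrIII:1545574-1549995 on the plus strand, covers all of rec7 and had log2 folds of 1.23 in the xap5 deletion, 0.53 in the pht1 strain and 1.59 in the double deletion. SPNCRNA.132, which begins just beyond the 3′ end of rec7, had 2.01, 0.71 and 1.82 in that order, SPNCRNA.69 had 0.88, 0.22 and 1.29, and SPNCRNA.131 had 1.00, 0.50 and 1.41. All 4 were higher in the xap5 and double deletions, and SPNCRNA.1203 alone was also called in the pht1 deletion. The sense folds of rec7 (0.54, 0.98 and 0.85) were not called. Over mal1, SPNCRNA.1317 and SPNCRNA.1318 lie beside each other: the first was called in the xap5 deletion alone (1.78), and the second had 1.70, 1.32 and 1.95 and was called in all 3 strains. Over vps1301, a lipid transfer protein gene, the 2 RNAs were called in opposite directions in the double deletion, SPNCRNA.1640 with 1.88 and SPNCRNA.1641 with −1.05.

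**Figure D4:**
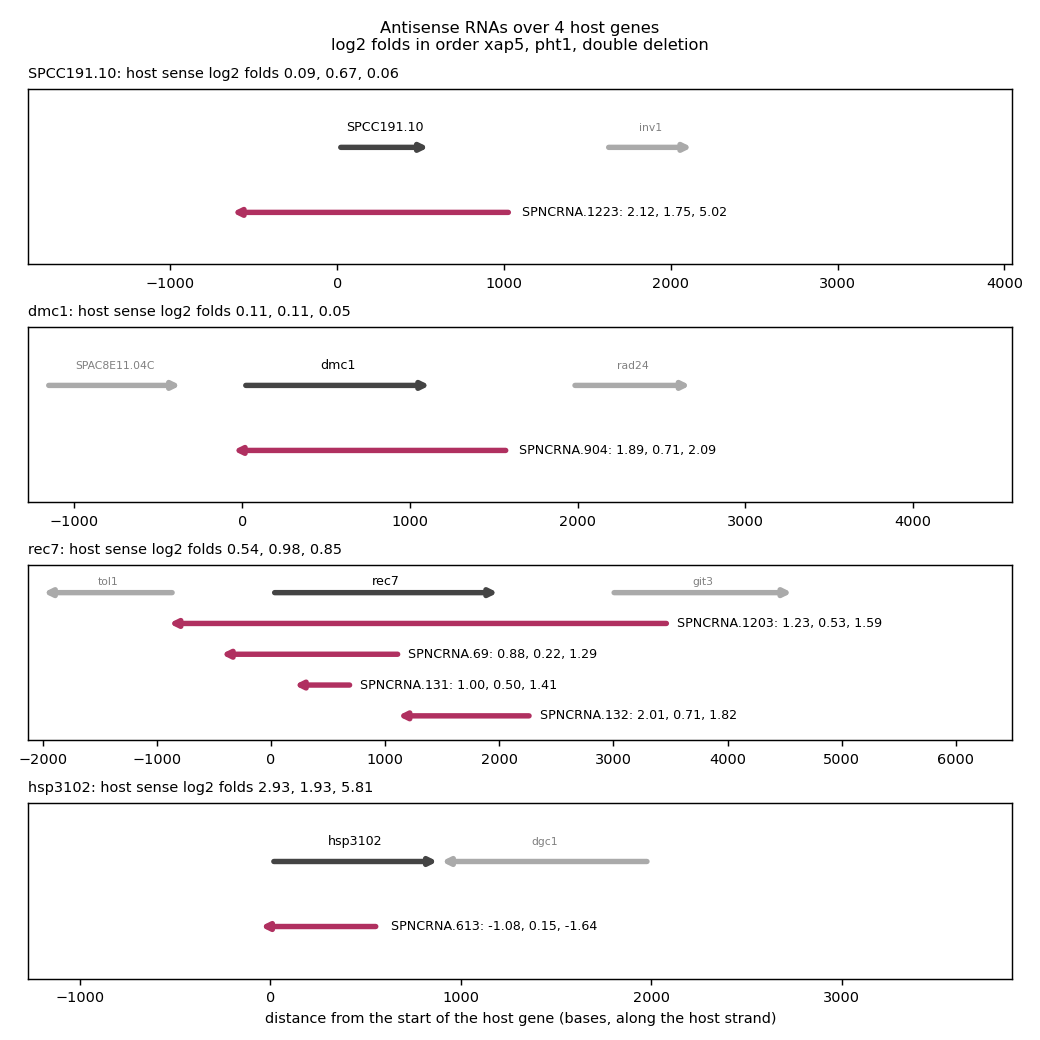
Antisense RNAs (red arrows) over 4 host genes (dark arrows), with neighbouring protein-coding genes in grey, cut at the edge of the region drawn; the horizontal axis is the distance in bases from the start of the host along its strand. Numbers are deposited log2 folds against wild type in the order xap5, pht1 and double deletion, from 5.02 for SPNCRNA.1223 in the double deletion to −1.64 for SPNCRNA.613.

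The RNAs were also grouped by the function of the host, as a description beside all 414 RNAs, of which 55.6% were higher and 3.86% lower in the xap5 deletion, 48.1% and 1.45% in the pht1 deletion, and 80.9% and 9.42% in the double deletion. Of 12 listed RNAs over cell cycle, division and DNA repair genes, 11 were higher in the xap5 deletion, 7 in the pht1 strain and 11 in the double deletion. Of these 12, 0 were lower in any strain. Outside the list are cds1, whose RNA was higher in the xap5 deletion, and mag2, whose RNA was lower there. These counts therefore depend on which hosts were listed. The medians of the 12 were 1.07, 0.78 and 1.82 in the order xap5, pht1 and double deletion, against 0.74, 0.67 and 1.26 over all RNAs. SPNCRNA.1438 over cdc2 had log2 folds of 2.57, 2.23 and 3.24 in that order, while the cdc2 sense fold was −0.42, 0.10 and −0.21, called in the xap5 deletion alone. SPNCRNA.1438 lies 1405 bases from pht1, and SPNCRNA.1155 over cds1 within 20 kb of xap5, so these are the RNAs nearest to the replaced genes together with SPNCRNA.1158 over gnr1, whose folds were 0.24, 0.46 and 0.82. SPNCRNA.1665 over cdc23, a replication initiation gene, had 1.65 in the xap5 deletion and 2.89 in the double deletion. SPNCRNA.846 over cig2, an S-phase cyclin gene, had 1.58 in the xap5 deletion, SPNCRNA.1529 over orc1, an origin recognition gene, had 1.58 in the pht1 deletion, and SPNCRNA.711 over rad52, a recombination gene, had 2.42 in the double deletion.

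RNAs over meiosis and sporulation genes numbered 30, including the 4 over rec7. Higher were 17 in the xap5 deletion, 12 in the pht1 strain and 24 in the double deletion, and lower were 1, 0 and 4 (medians 0.82, 0.49 and 1.16), close to the shares over all 414 RNAs. SPNCRNA.904 over dmc1 had 1.89, 0.71 and 2.09 in that order, and dmc1 itself had sense folds of 0.11, 0.11 and 0.05, none called. SPNCRNA.1453 over mug124 (1.57) and SPNCRNA.1351 over mug2 (1.55) followed in the xap5 deletion, and SPNCRNA.1435 over mug93 (2.09) and SPNCRNA.1056 over mug106 (1.98) in the double deletion. SPNCRNA.827 over meu26 was higher in the pht1 deletion (1.23, adjusted p = 9.99e-10), where the sense fold of meu26 was −3.35 (adjusted p = 0.0154). Of the 29 hosts with a sense value, 7 were higher and 3 lower in the xap5 deletion, 4 and 2 in the pht1 deletion, and 9 and 2 in the double deletion. Among all sense entries the higher shares were 21.1%, 13.5% and 30.5%, and the lower shares 20.6%, 11.1% and 34.3%, in the same order.

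The 8 RNAs over ribosome and translation genes moved both ways. None was called in the xap5 deletion, where 3 of the 8 hosts were lower. In the pht1 deletion 2 were higher and 3 lower, and in the double deletion 5 were higher and 2 lower, while all 8 hosts were lower there. SPNCRNA.892 over tif211 had 2.20 in the double deletion, where tif211 had −1.10, and SPNCRNA.1594 over rpl1801, a large-subunit ribosomal protein gene, had 2.17. The RNAs that were lower are those over tef102 and tef103 and, in the pht1 deletion, over rps1601.

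The remaining groups are too small to set beside the shares over all RNAs and are given as counts. Of 6 RNAs over stress response and chaperone genes, 3 were higher and 1 lower in the xap5 deletion, 3 higher and 0 lower in the pht1 strain, and 5 higher and 1 lower in the double deletion. SPNCRNA.622 over sty1, the stress-activated MAP kinase gene, had 0.94, 0.79 and 1.60 in that order, and SPNCRNA.1678 over the thioredoxin reductase gene trr1 had 0.85, 1.12 and 1.75. SPNCRNA.1100 over hsp3101 was higher in the double deletion (1.56) together with its host (4.52), unlike SPNCRNA.613 over hsp3102. Of 8 RNAs over transcription and chromatin genes, 4, 3 and 5 were higher and 1, 0 and 2 lower in the same order of strains. SPNCRNA.1638 over hip1, a gene of the HIRA histone chaperone, had 2.64 in the double deletion, and SPNCRNA.764 over toe1 had 1.81. SPNCRNA.1112 over rpc37, an RNA polymerase III subunit gene, had 1.89 in the pht1 deletion. Of 3 RNAs over membrane transporter genes, SPNCRNA.758 over the ammonium transporter gene amt2 had 1.99 in the xap5 deletion and 2.57 in the double deletion, SPNCRNA.859 over amt3 had 0.60 in the pht1 deletion, and SPNCRNA.1319 over the hexose transporter gene ght4 had −1.13 in the double deletion, where ght4 had 1.67.

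**Figure D5:**
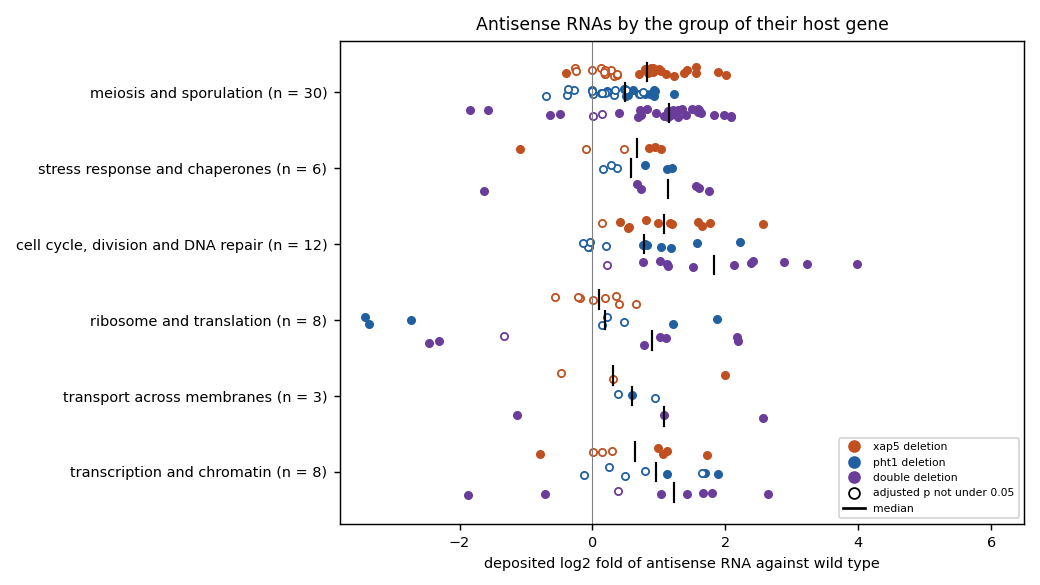
Deposited log2 folds of antisense RNAs against wild type by the function of the host gene; each point is 1 RNA, colours are the 3 deletion strains, open points have an adjusted p-value of 0.05 or more, and bars are medians. The medians of the 12 listed RNAs over cell cycle, division and DNA repair genes are 1.07 for the xap5 deletion, 0.78 for pht1 and 1.82 for the double deletion.

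The deposited antisense table also gives antisense signal over the host itself for 99 hosts of 103 RNAs. This is a second measure that can share reads with the RNA. The absolute difference between the fold of the RNA and that of the host antisense signal had a median of 0.40 log2 units in the xap5 deletion, 0.42 in the pht1 strain and 0.46 in the double deletion. For SPNCRNA.1280 in the double deletion the folds were 3.94 for the RNA and 3.88 for antisense signal over yme1, and for SPNCRNA.791 they were 3.98 and 4.55 over rad55. SPNCRNA.613 stood apart: its fold of −1.08 in the xap5 deletion went with 7.05 for antisense signal over hsp3102, and its fold of −1.64 in the double deletion with 2.99. For SPNCRNA.754 in the double deletion, which covers 13.7% of bst1, the folds were 4.79 for the RNA and 1.85 for antisense signal over the whole gene.

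Among genes of RNA surveillance, of histone deacetylation and elongation, and of termination, more were lower than higher in each deletion strain. Of 24 RNA surveillance and exosome genes, 13 were lower in the xap5 deletion, 3 in the pht1 strain and 19 in the double deletion, and 0 were higher (medians −0.38, −0.11 and −0.62). Of all sense entries 20.6%, 11.1% and 34.3% were lower and 21.1%, 13.5% and 30.5% higher in the same order. The gene mmi1, which encodes the factor that sends meiotic transcripts to the exosome, had sense log2 folds of −0.77 in the xap5 deletion and −1.03 in the double deletion, and rrp41, an exosome core gene, had −0.60 and −0.99. Of 34 histone deacetylation and elongation genes, 7, 7 and 21 were lower and 1, 0 and 2 higher in the order xap5, pht1 and double deletion; clr6, a histone deacetylase gene, had −0.58, −0.53 and −0.98. Of 19 termination and 3′ end processing genes 4, 4 and 9 were lower and 0, 2 and 0 higher. In the xap5 deletion the lower shares of the histone deacetylation and elongation group and of the termination group were close to that of all sense entries. In the pht1 deletion the share of RNA surveillance genes that were lower, 3 of 24, was close to the 11.1% of all sense entries. RNAi and heterochromatin genes, 21 in all, had 4, 0 and 3 higher and 1, 7 and 4 lower, with rdp1, the RNA-dependent RNA polymerase gene, at −0.84 in the pht1 deletion. Of 13 SWR1 complex genes 2, 1 and 5 were higher and 2, 4 and 5 lower. The part of these levels in the antisense RNA folds was not tested.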

How the data were processed

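RNA from 13 libraries was sequenced as 100-base single reads in 2 lanes after ribosomal RNA removal with Ribo-Zero (human/mouse/rat) and strand-specific, randomly primed library construction, per the labels' protocols. BWA 0.5.8c and edgeR are named in the submitters' processing notes, without the role of either. The authors deposited tables of their own comparisons of each deletion strain with wild type. Each gives, per the file headers, a fold change taken here as log2, the convention of edgeR, with its p-value before and after adjustment. One annotated antisense RNA has a deposited p-value above 1, which was left as it is. The normalization and the depth of single libraries are not given in the sources used here, so no test, interval or standard error was computed.

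The calls are the deposited adjusted p-values under 0.05 with the sign of the fold. Members, gene lists, motifs and alternatives were chosen with earlier results of these data known. The descriptions in the authors' table name no host, so hosts were found by gene identifier as the protein-coding gene with the largest overlap on the other strand in RefSeq ASM294v3. The table header names an Ensembl annotation, and no file coordinate was joined to the reference; 114 of 117 deposited LTR positions equal a reference LTR. Named RNAs were the 10 called ones with the highest and the 10 with the lowest fold in each comparison, the 5 with the smallest adjusted p-value, up to 4 per host list, the 5 largest and smallest differences of folds, RNAs near xap5 or pht1, and hosts with more than 1 RNA, which were added after values were seen. Sense entries with a fold over 20 on the log2 scale were kept out of differences. Python 3.11.15, pandas 2.3.3, numpy 2.4.6 and matplotlib 3.10.9 were used, and the counting steps were tested on simulated data. Alternatives were stricter p-values, a minimum fold, centred folds, and leaving out groups of RNAs.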

Additional observations from a re-analysis of the deposited data

How the results depend on the processing

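The number of annotated antisense RNAs called higher stayed above the number called lower in each comparison under every alternative run. Of 66 alternative counts of called RNAs 58 were within 1.5 times the reported one, and of 32 counts of hosts and fold differences 18 were. Identifiers compared in exact case and centred folds changed no count of called RNAs. Centring left the adjusted p-values as they were, so it could change only the direction of a called RNA with a fold near 0. All counts of called RNAs outside that range came from the limit of 0.001 or the minimum fold. The 58 of 66 are thus in part set by the choice of alternatives. With an adjusted p-value under 0.001, 134 RNAs were higher in the xap5 deletion with 5 lower, 99 were higher in the pht1 deletion with 2 lower, and 25 were lower in the double deletion. With a fold of at least 2 as well, 134 were higher and 5 lower in the xap5 deletion and 106 higher in the pht1 deletion. Host calls at 0.01 beside RNAs called higher gave 26 lower hosts in the xap5 deletion, and 7 higher and 11 lower in the pht1 deletion. Beside RNAs called lower they gave 6 higher and 0 lower hosts in the xap5 deletion and 0 higher in the pht1 deletion. These limits leave fewer RNAs by construction. The double deletion fold exceeded that of the xap5 deletion by at least 0.5 log2 units in 204 RNAs and by at least 2 in 16, and fell short by as much in 59 and 7. Against the pht1 deletion these counts were 223 and 21, and 60 and 3. Leaving out RNAs with repeated sequence, near the deleted genes or noted as possible UTRs was chosen after seeing the data. Taking hosts from the authors' descriptions gave no value, since they name none. Leaving out each library in turn could not be run from tables of comparisons. No paired analysis was possible because the tables hold no values per library. The depth of single libraries is unknown, so an RNA that was not called may have been too weakly covered.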
